A study of Gallus gallus with 4 samples.

Results

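Chromosome 27 is a chicken microchromosome, one of the many small avian chromosomes that are rich in genes and in G and C bases, and it was dense in condensin peaks. Every peak that the deposited SMC2 and CAP-H lists place on this chromosome is described here: 313 of 6474 SMC2 peaks and 158 of 4369 CAP-H peaks, or 471 of 10843 in all. Chosen with earlier results of these data known, the members were taken by position alone. They come from DT40, a line of chicken B lymphoma cells, in which the SMC2 or CAP-H gene was knocked out and rescued by a transgene tagged with the streptavidin-binding peptide (SBP). All cells were grown with 2 ng/ml doxycycline, which silenced the untagged protein, and were blocked in mitosis with 500 ng/ml nocodazole. The libraries described are 1 streptavidin pull-down from cells with tagged SMC2 and 1 from cells with tagged CAP-H. The matching inputs were not analysed here. Each list comes from a single library, so no difference has a replicate check, and every 95% interval below covers counting error only. The intervals count each peak as independent. Many peaks lay close together and some shared a partner, so the intervals are likely too narrow. Reads were not analysed here, so the depth behind the peaks is unknown.

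Condensin is a ring-shaped complex that loops and compacts chromatin for cell division. SMC2 is one of its paired ATPase arms and is shared by condensin I and condensin II. CAP-H is the kleisin subunit, which closes the ring, of condensin I alone, so SMC2 can mark sites of either complex and CAP-H only those of condensin I. Condensin also gathers at centromeres, where it helps the chromatin to resist the pull of the spindle. Most chicken centromeres lie on long tandem repeats, but those of chromosomes 5, 27 and Z are known to lie on sequence without them. Positions below are in galGal4 and counted from 1. The chromosome's length was taken as its highest listed coordinate, 5207013, which is the end of an SMC2 peak.

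SMC2 and CAP-H peaks were both crowded toward the high-coordinate end of the chromosome. There were 98 SMC2 peaks below the midpoint at 2603506 and 215 above it, a ratio of 2.19 (95% exact conditional interval 1.72 to 2.82). For CAP-H the counts were 27 and 131, a ratio of 4.85 (3.19 to 7.64). Over all listed peaks the gradient was steeper for CAP-H than for SMC2. SMC2 peaks per CAP-H peak were 3.63 below the midpoint and 1.64 above it, an odds ratio of 0.453 (0.269 to 0.743) for the upper against the lower side. With only SMC2 peaks that have a listed score of at least 100, the SMC2 ratio was 3.12 (2.09 to 4.77). That interval overlaps the CAP-H interval, though the CAP-H ratio was still the higher. CAP-H peaks have no score and were not filtered. With peaks of the same list within 1 kb merged, the ratios were 1.70 (1.31 to 2.22) for SMC2 and 4.26 (2.68 to 7.03) for CAP-H. Whether the gradients differ under these settings was not tested. On the 18 microchromosomes 11 to 28, the ratio of the richer to the poorer side was higher for CAP-H on chromosome 22 alone, which had 7 CAP-H peaks on one side and 35 on the other. For SMC2 it was higher on 4 of them, chromosomes 16, 18, 19 and 22.

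In 5 equal parts of 1.04 Mb, counted from the first base, SMC2 density was 39.4, 51.9, 42.3, 59.5 and 108 peaks per Mb. The intervals of the outermost parts, 28.3 to 53.4 and 88.6 to 129, did not overlap. CAP-H density in the same parts was 10.6, 15.4, 15.4, 40.3 and 70.1 peaks per Mb, with 5.27 to 18.9 in the first part and 54.9 to 88.1 in the last. Over the first 3 parts the intervals of each list overlapped. SMC2 peaks covered 4.82% of the bases of the first part and 19.1% of the last. CAP-H peaks covered 3.93% of the first part, mostly through a few wide peaks described below, and 14.6% of the last.

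**Figure D1:**
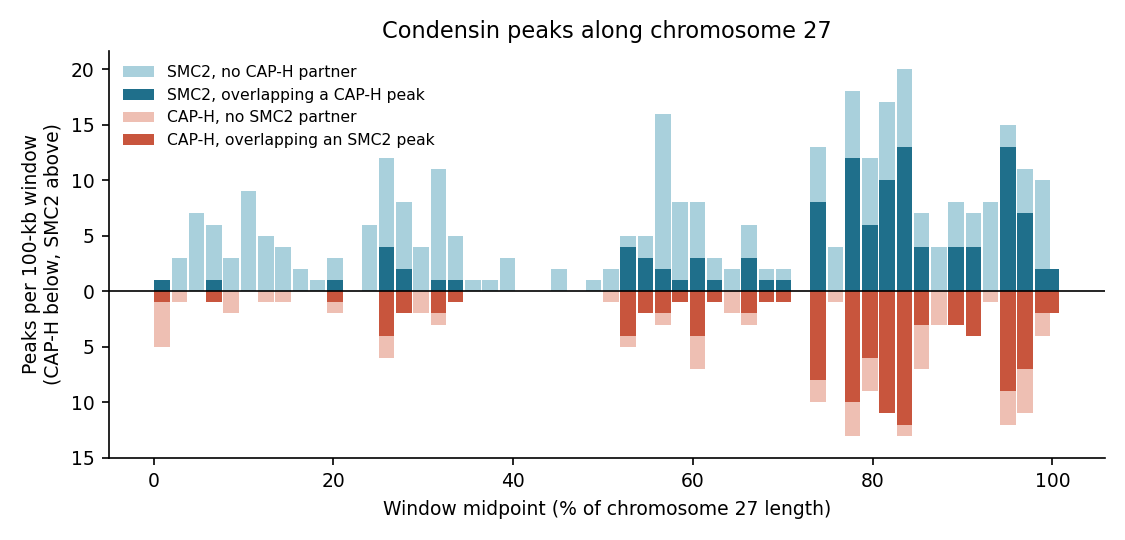
SMC2 peaks (bars above 0) and CAP-H peaks (bars below 0) per 100-kb window of chromosome 27, against the window's midpoint as a percentage of the chromosome's length; dark parts of the bars are peaks that overlap the other list, and the last window is shorter than 100 kb. Of 53 windows, 38 held peaks of both lists, 10 held SMC2 peaks only, 5 were empty of both and none held CAP-H peaks only.

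The windows of 100 kb with most peaks lay between 4000001 and 4400000 and toward the end of the chromosome. Peaks were assigned to windows by their midpoints. The richest SMC2 window, from 4300001 to 4400000, held 20 SMC2 and 13 CAP-H peaks, of which 13 and 12 overlapped the other list. The window from 4000001 held 18 SMC2 and 13 CAP-H peaks, and the window from 4200001 held 17 and 11. All 11 CAP-H peaks of the window from 4200001 had an SMC2 partner. The window from 4900001 to 5000000 had 15 SMC2 and 12 CAP-H peaks, and that from 5000001 to 5100000 had 11 of each. These are the 5 richest windows for CAP-H, among which those from 4000001 and 4300001 tied at 13 and those from 4200001 and 5000001 at 11. Among the 5 richest for SMC2, the last is replaced by the window described next.

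Some windows were rich in SMC2 without being rich in CAP-H. From 2900001 to 3000000 there were 16 SMC2 peaks, the fourth highest count, but 3 CAP-H peaks. Of the 16, 2 overlapped a CAP-H peak. The window that follows, from 3000001 to 3100000, had 8 SMC2 peaks and 1 CAP-H peak. The windows from 1600001, with 11 SMC2 and 3 CAP-H peaks, and from 5100001, with 10 and 4, were also rich in SMC2 with fewer CAP-H peaks. Their CAP-H counts were above the median window, which held 5 SMC2 peaks and 1 CAP-H peak. Among windows without a CAP-H peak, the one from 500001 had most SMC2 peaks, 9. These windows were named after their counts were seen. More CAP-H than SMC2 peaks were found in 1 window of the 53, the first, with 5 against 1. Across the 53 windows the counts of both lists rose and fell together (Pearson's r 0.81, Spearman's rho 0.72). This is a description of windows that share the same 2 libraries, their mappability and base composition, and carries no test.

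Many peaks lay in few windows. The 11 of 53 windows with 10 or more SMC2 peaks held 155 SMC2 peaks, 49.5% of them, and 95 CAP-H peaks, 60.1% of them. These windows were chosen by their SMC2 counts, so a high SMC2 share follows from the choice. From 3800001 to 4500000, a stretch picked after the counts were seen, 13.4% of the length carried 91 SMC2 and 64 CAP-H peaks. SMC2 density there was 130.0 peaks per Mb (105 to 160), and that of CAP-H was 91.4 (70.4 to 117). High densities follow from picking the stretch by its counts, and the intervals take no account of that choice. Of the 91 SMC2 and 64 CAP-H peaks, 53 and 50 overlapped the other list, or 58.2% (47.4 to 68.5) and 78.1% (66.0 to 87.5). On the whole chromosome the shares were 36.7% and 67.7%, and over all listed peaks 31.0% and 42.4%. The CAP-H interval of the stretch includes the share of the whole chromosome. SMC2 peaks covered 25.5% of this stretch and CAP-H peaks 20.4%, so that some overlap follows from coverage alone. How much was not tested.

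A region mostly below the midpoint, which it also crossed, was nearly free of CAP-H peaks. The longest interval between CAP-H peaks ran over 980.2 kb, from 1717401 to 2697577. Between 1800001 and 2700000, also picked after the counts were seen, there were 10 SMC2 peaks and 1 CAP-H peak, and no overlap. These SMC2 peaks were narrow, with a median of 753 bp against 1185 bp on the whole chromosome. Their scores were low as well, with a median of 70.2 and a maximum of 89.4. The score is the value listed for each SMC2 peak, has no stated definition and is used here only to rank or filter. Density there was 11.1 peaks per Mb (5.33 to 20.4) for SMC2 and 1.11 (0.0281 to 6.19) for CAP-H. The stretch was picked for its few peaks, so a density below that of the whole chromosome follows from the choice. The intervals take no account of it.

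The 5 longest gaps free of peaks of both lists made up 17.1% of the length. The longest, 286 kb, ran from 2023420 to 2309287, and the next, 198 kb, from 2332382 to 2530747. A 159-kb gap from 3676119 to 3835610 ran into the start of the dense stretch. The other two ran from 916896 to 1041104 (124 kb) and from 1088594 to 1210094 (122 kb). Assembly gaps and unmappable sequence were not analysed here, so an empty stretch cannot be told apart from one to which reads could not be assigned. Distances between neighbouring peaks of each list were taken over the whole chromosome, these gaps included. The median distance between neighbouring SMC2 peaks was 4804.5 bp (interquartile range 1502 to 16610), and 62 of 312 such distances were at most 1 kb. Between CAP-H peaks the median was 6761 bp (1076 to 24550), and 37 of 157 were at most 1 kb.

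An SMC2 peak counted as partnered when it shared 1 bp or more with a CAP-H peak. This held for 115 of the 313 SMC2 peaks, 36.7% (95% exact Clopper-Pearson interval 31.4 to 42.3), beside 31.0% of all SMC2 peaks of the list. In the other direction 107 of the 158 CAP-H peaks were partnered, 67.7% (59.8 to 74.9), beside 42.4% of all CAP-H peaks. When each peak of a pair had to be covered to 50% or more, the shares were 19.8% and 39.2%. By bases, 192 kb was covered by both lists, which is 39.9% of the 481 kb under SMC2 peaks and 57.4% of the 335 kb under CAP-H peaks.

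The partnered share of SMC2 peaks differed along the chromosome. Below the midpoint 11 of 98 SMC2 peaks had a CAP-H partner, or 11.2% (5.74 to 19.2), and above it 104 of 215, or 48.4% (41.5 to 55.3). The odds ratio was 7.37 (exact conditional interval 3.66 to 16.2). This interval counts each SMC2 peak as independent, although 17 CAP-H peaks overlapped 2 SMC2 peaks each and 3 overlapped 3. In the 5 equal parts the share went from 4.88% to 16.7%, 27.3%, 48.4% and 55.4%. CAP-H density was higher in the upper parts too, and its part in the SMC2 share was not tested. The share was also split by score. Of SMC2 peaks scored at least 100, 7 of 33 below the midpoint and 74 of 103 above it had a partner, or 21.2% (8.98 to 38.9) and 71.8% (62.1 to 80.3). Under that score, 4 of 65 and 30 of 112 did, or 6.15% (1.70 to 15.01) and 26.8% (18.9 to 36.0). Scores were not matched within these classes: 1 peak below the midpoint and 22 above it were scored at least 300.

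CAP-H peaks were partnered in 12 of 27 cases below the midpoint, or 44.4% (25.5 to 64.7), and in 95 of 131 above it, or 72.5% (64.0 to 80.0), an odds ratio of 3.27 (1.29 to 8.48). In the first of the 5 parts 2 of 11 CAP-H peaks were partnered, or 18.2% (2.28 to 51.8). In the other 4 parts the share was between 62.5% and 75.3%. The interval of the first part overlapped those of the next 3 parts but not that of the last (63.9 to 84.7). The difference in the SMC2 share between the sides, 37.1 percentage points, was the largest on the 18 microchromosomes. Chromosome 11 was next at 27.2 points and chromosome 28 had 12.3. This ranking carries no test.

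**Figure D2:**
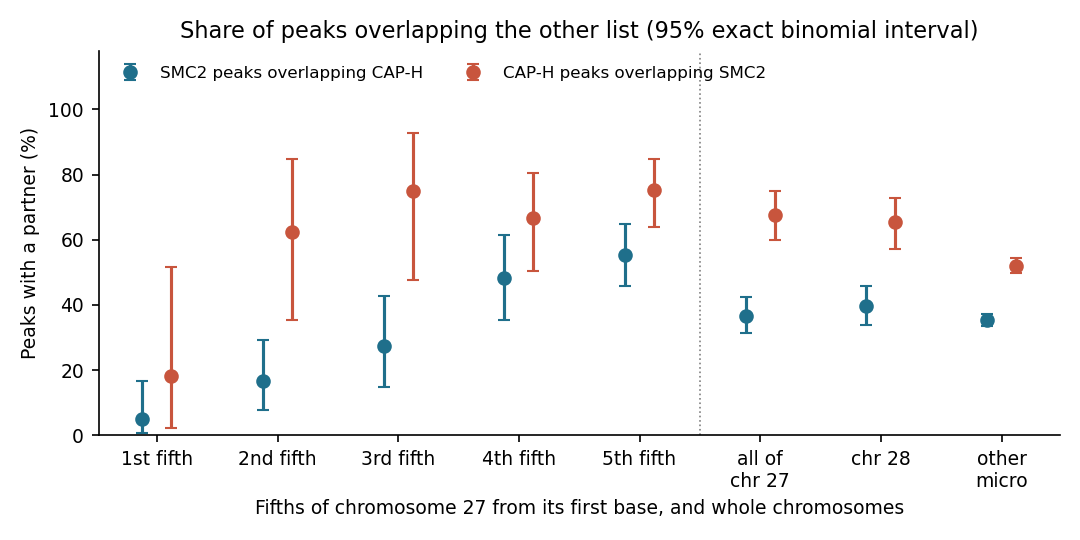
Share of SMC2 peaks that overlap a CAP-H peak and of CAP-H peaks that overlap an SMC2 peak (percent, with 95% exact binomial intervals for counting error), in 5 equal parts of chromosome 27, on the whole of it, on chromosome 28 and on microchromosomes 11 to 26 and 28 pooled. The SMC2 share went from 4.88% in the first part to 55.4% in the last, while the CAP-H share was 18.2% in the first part, from 11 peaks, with an interval that overlaps those of 3 of the other 4 parts.

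The 115 SMC2 and 107 CAP-H partners formed 130 overlapping pairs at 92 sites. At 63 sites 1 SMC2 peak met 1 CAP-H peak. The midpoints of these pairs lay a median of 370 bp apart (interquartile range 136 to 669), and 38 of the 63 were under 500 bp apart. The CAP-H midpoint had the higher coordinate in 34 pairs and the lower in 29. The CAP-H peak was wider in 32 pairs, the SMC2 peak in 30, and 1 pair was equal. The median widths were 1645 bp for CAP-H and 1635 bp for SMC2. At the other 29 sites a peak of one list met several of the other. In all, 13 SMC2 peaks overlapped 2 CAP-H peaks and 1 overlapped 3, while 17 CAP-H peaks overlapped 2 SMC2 peaks and 3 overlapped 3.

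The broadest joint sites were picked after their widths were seen. The broadest ran over 14.5 kb, from 4256435 to 4270974, with 2 peaks of each list. It holds the widest SMC2 peak of the chromosome, of 12419 bp from 4258556 to 4270974, with a score of 191. The CAP-H peaks there measured 8410 bp and 4764 bp. The next site, of 11.6 kb from 4371447 to 4383036, has 2 SMC2 and 3 CAP-H peaks and a highest score of 543. The site from 4982195 to 4990690, of 8.50 kb, has 3 SMC2 and 2 CAP-H peaks and a highest score of 492.

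Each of the 10 SMC2 peaks with the highest score overlapped a CAP-H peak, and 9 of them lay in the dense stretch from 3800001 to 4500000. The highest score, 956, belonged to the peak from 4365959 to 4370680. Its CAP-H partner, from 4365985 to 4370770, had nearly the same ends. The peak from 4042397 to 4050153 had a score of 823 and 2 CAP-H partners. The third, with 788, was the exception in position. It is the last SMC2 peak of the chromosome, from 5204719 to 5207013, and its CAP-H partner from 5204733 to 5206958 is the last of that list.

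Next in score were the SMC2 peaks from 4117457 to 4122011 (748), from 4279269 to 4284901 (724) and from 4184832 to 4186750 (717). The peaks from 4176327 to 4180863 (668) and from 4180977 to 4184110 (599) share 1 CAP-H partner of 7834 bp. The remaining peaks of the 10 ran from 4392721 to 4396196 (586) and from 3854037 to 3858095 (552). From 4176327 to 4186750, 3 of these 10 peaks thus follow one another.

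High-scoring and wide SMC2 peaks were the ones most often partnered. When the SMC2 peaks were split into 3 groups of like size by score, the partnered share was 19.2% (12.2 to 28.1) in the lowest, 20.2% (12.96 to 29.2) in the middle and 70.5% (60.8 to 79.0) in the highest. The step was between the middle and the highest group, which begins at a score of 116. All 23 SMC2 peaks scored at least 300 were partnered, and 22 of them lay above the midpoint. The highest score without a partner was 278, at 1399252 to 1401522, with the nearest CAP-H peak 4.83 kb away. Partnered SMC2 peaks had a median score of 166 (order-statistic interval 129 to 186) and a median width of 1685 bp (1499 to 1919). Those without a partner had 77.6 (73.7 to 81.0) and 1074 bp (1022 to 1119). A wider peak has more bases in which to meet another, so width and overlap are not independent. Score and width rose together over the 313 peaks (Spearman's rho 0.77), so the split by score is not separate from width. Like-scored peaks of other chromosomes were not split in this way here.

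**Figure D3:**
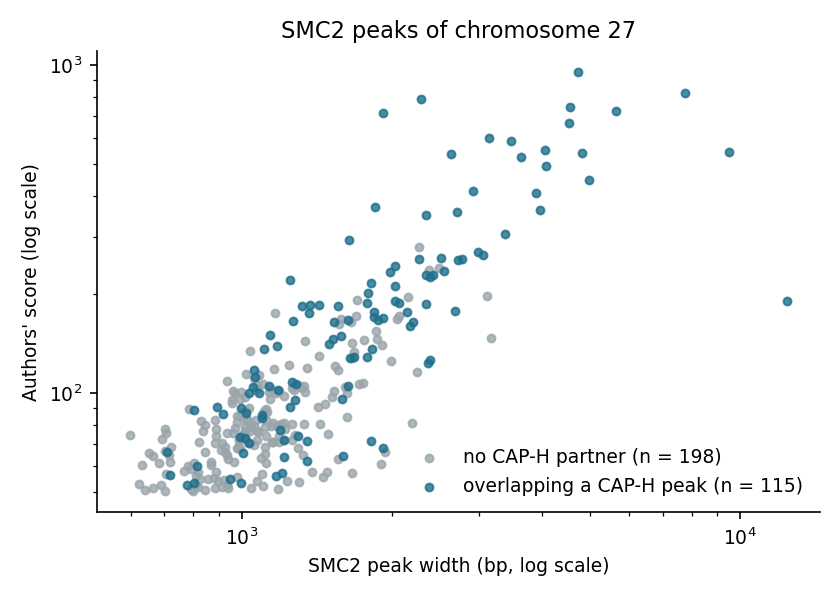
Score in the deposited list (log scale) against width in bp (log scale) for the 313 SMC2 peaks of chromosome 27, 115 with and 198 without an overlapping CAP-H peak. All peaks scored at least 300 overlapped a CAP-H peak, and the widest peak, of 12419 bp, had a score of 191.

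Over all listed peaks the median width was higher for CAP-H, at 1511.5 bp (1367 to 1769) against 1185 bp (1119 to 1261) for SMC2. The order did not hold without low-scoring SMC2 peaks. SMC2 peaks scored at least 100 had a median of 1770.5 bp (1641 to 1913), and CAP-H peaks have no score to filter by. With nearby peaks of each list merged, the order held, at 1850 bp for CAP-H and 1231 bp for SMC2. At sites where a lone SMC2 peak met a lone CAP-H peak, the medians were 1645 bp for CAP-H and 1635 bp for SMC2. The depth behind each list is unknown. Peaks of at least 3000 bp numbered 33 of 158 for CAP-H and 20 of 313 for SMC2. Partnered CAP-H peaks had a median of 1905 bp (1528 to 2216) and the others 1041 bp (848 to 1316). From the narrowest to the widest of 3 groups of like size, the partnered share of CAP-H peaks was 40.4% (27.01 to 54.9), 73.6% (59.7 to 84.7) and 88.7% (77.0 to 95.7).

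The widest CAP-H peaks of the chromosome broke this pattern. The widest, of 19317 bp from 4611 to 23927, and the second, of 9234 bp from 37555 to 46788, had no SMC2 partner. The other 8 of the 10 widest were all partnered, and 7 of them lay in the dense stretch. These were from 4261911 to 4270320, from 4176316 to 4184149, from 4277005 to 4284030, from 4051130 to 4056024, from 4365985 to 4370770, from 4256435 to 4261198 and from 4057816 to 4062523. The remaining one, of 6452 bp from 4982195 to 4988646, overlapped 3 SMC2 peaks.

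A CAP-H-only stretch was defined as at least 3 CAP-H peaks in a row without an SMC2 peak on or between them. There were 3 such stretches. With SMC2 peaks scored at least 100 alone there were 7, and with runs of at least 2 peaks 10. The first opens the chromosome, from 931 to 46788, with peaks of 3243, 19317 and 9234 bp that cover 31.8 kb of 45.9 kb. In the first 50 kb, a span picked after the peaks were seen, there was no SMC2 peak, and the 3 CAP-H peaks covered 63.6% of it. The first SMC2 peak, from 54027 to 55062, lay 7.24 kb further on and was met by a CAP-H peak of the same width, 1036 bp, from 54126 to 55161. Of the next CAP-H peaks, from 96159 to 98306 and from 115891 to 117301, neither had a partner.

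The other two stretches were made of narrow peaks. One, from 4086725 to 4108914, had 4 CAP-H peaks of 768 to 1600 bp and lay inside the dense stretch, with SMC2 peaks 0.717 kb before and 0.732 kb after it. The other, from 4523929 to 4541716, had 3 peaks of 1206 to 1965 bp, with the nearest SMC2 peaks 16.7 kb before and 16.8 kb after it. The 3 stretches held 10 of the 51 CAP-H peaks without a partner, or 19.6%. Most unpartnered CAP-H peaks thus stood singly or in pairs among SMC2 peaks. Their median distance to the nearest SMC2 peak was 3273 bp (interquartile range 1110 to 10141), and 5 of the 51 were within 500 bp.

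SMC2-only stretches, defined in the same way, were longer and more numerous. There were 28, which held 160 of the 198 unpartnered SMC2 peaks, or 80.8%. The longest by number of peaks had 14 each, from 144794 to 385068 and from 469110 to 619437. The third had 11 peaks spread over 880.4 kb, from 1798993 to 2679429, in the sparse region that crosses the midpoint. The next had 10, from 1625929 to 1708279, and 9, from 1210095 to 1332919. These 5 longest stretches were all below or across the midpoint, although 18 of the 28 had their centres above it and 10 below. The median scores of the 5 longest were between 65.0 and 82.6. Unpartnered SMC2 peaks lay a median of 12598.5 bp from the nearest CAP-H peak, and 111 of the 198 lay more than 10 kb away.

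Chromosome 27 was set beside the other microchromosomes and beside chromosome 28, which is nearest to it in the density of both lists. SMC2 density was 60.1 peaks per Mb (53.6 to 67.2) on chromosome 27 and 17.3 (16.6 to 17.9) on the other 17 microchromosomes pooled, a ratio of 3.48 (3.09 to 3.91). CAP-H density was 30.3 (25.8 to 35.5) and 10.7 (10.2 to 11.2), a ratio of 2.84 (2.40 to 3.34). Against chromosome 28 the ratios were 1.04 (0.882 to 1.23) for SMC2 and 0.979 (0.777 to 1.23) for CAP-H, and both intervals include 1.

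**Figure D4:**
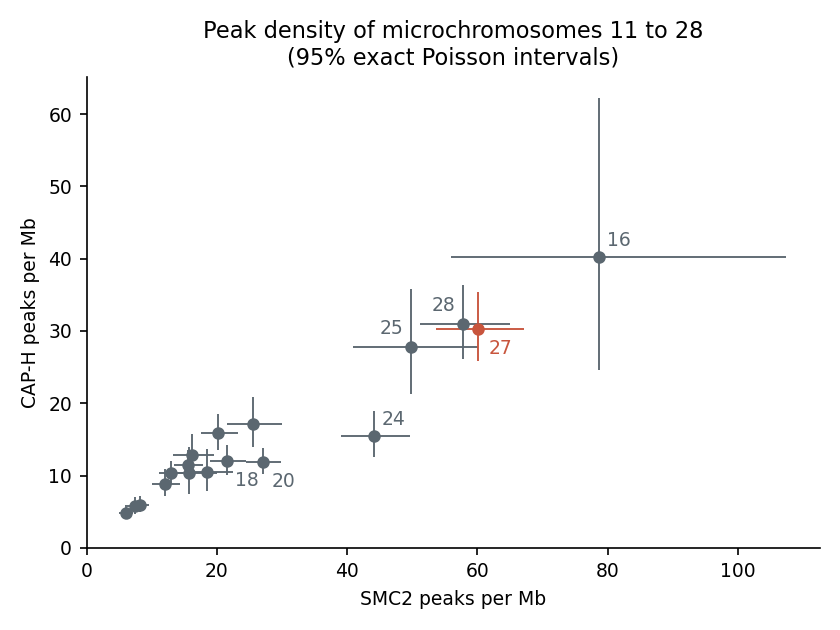
SMC2 against CAP-H peaks per Mb on microchromosomes 11 to 28, each a point with 95% exact Poisson intervals for counting error; chromosome 27 is in red. It lies at 60.1 peaks per Mb for SMC2 and 30.3 for CAP-H, beside chromosome 28 and below chromosome 16.

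CAP-H peaks on chromosome 27 were more often partnered than on the other microchromosomes, at 67.7% against 52.1% (49.7 to 54.4), an odds ratio of 1.93 (1.35 to 2.79). Among single microchromosomes chromosome 16 alone was higher, with 20 CAP-H peaks in all. Chromosome 24 had nearly the same share, 67.0% (56.7 to 76.2). SMC2 peaks of chromosome 27 were not detectably more often partnered, at 36.7% against 35.3% (33.6 to 37.1), an odds ratio of 1.06 (0.827 to 1.36). Against chromosome 28 both odds ratios spanned 1, at 1.11 (0.673 to 1.84) for CAP-H and 0.879 (0.621 to 1.24) for SMC2. The denser SMC2 peaks of chromosome 27, which cover 9.24% of its bases against 2.57% on the others, also raise the overlap expected from placement. The part of density in the CAP-H share was not tested.

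Peak widths on chromosome 27 had intervals that overlapped those elsewhere, with medians of 1185 bp for SMC2 against 1168 bp (1148 to 1186) on the other microchromosomes, and of 1511.5 bp for CAP-H against 1510.0 bp (1446 to 1573). The median SMC2 score was higher, at 88.7 (81.7 to 99.8) against 77.5 (75.8 to 79.3), with intervals that did not overlap. Chromosome 28 had 87.4 (80.6 to 93.0), an interval that overlaps that of chromosome 27, and chromosomes 16 and 18 had higher medians. CAP-H-only stretches held a smaller share of CAP-H peaks, 6.33% (3.08 to 11.3) against 13.3% (11.7 to 14.9), an odds ratio of 0.441 (0.204 to 0.851). On chromosome 28 that share was lower still, at 4.08%, on chromosome 23 it was 3.06%, and chromosomes 16 and 22 had no such stretch. SMC2-only stretches held a larger share of SMC2 peaks, 51.1% (45.4 to 56.8) against 42.5% (40.7 to 44.4), an odds ratio of 1.41 (1.11 to 1.80). Chromosomes 20, 24 and 26 were higher, at 56.6%, 65.8% and 52.6%, and chromosome 28 had 41.6%. A stretch takes in at least 3 peaks at once, so its peaks are not independent. On chromosome 27 these shares rest on 3 CAP-H-only and 28 SMC2-only stretches. The intervals of the stretch shares and their odds ratios count each peak as independent and are too narrow. Such runs depend on how many peaks of each list a chromosome has, and chromosome 27 has 1.98 SMC2 peaks per CAP-H peak (1.63 to 2.41) against 1.62 (1.52 to 1.72). With SMC2 peaks scored at least 100 alone, the value on chromosome 27 was 0.861 (0.679 to 1.09).

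No SMC2 peak of chromosome 27 was as wide as the widest of chromosomes 5 and Z. The widest SMC2 peaks were of 40.4 kb on chromosome 5 and 31.3 kb on chromosome Z, with widest CAP-H peaks of 30.3 kb and 13.3 kb that lie at the same sites. On chromosome 27 the widest SMC2 peak was of 12.4 kb, and the widest CAP-H peak, of 19.3 kb, was at another place and had no SMC2 partner. The widest SMC2 peaks of chromosomes 5 and Z had scores of 3100 and 2808, and the highest score on chromosome 27 was 956. Higher maxima were not particular to chromosomes 5 and Z. Among the other microchromosomes only 13, 21 and 23 had a lower highest score than chromosome 27. The value 3100 was also the highest on chromosomes 11, 12, 14, 17, 18, 22 and 24. No microchromosome exceeded 3100, and whether the score is capped there was not tested. The distance between 3100 and 956 is therefore not read as a measured size. The position of the centromere on chromosome 27 was not analysed here, so none of its peaks is assigned to it. Scaffolds assigned to chromosome 27 but not placed on it carried a further 17 SMC2 and 7 CAP-H peaks, which the counts above leave out.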

How the data were processed

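Peak lists of 2 pull-down libraries were used: tagged SMC2 and tagged CAP-H. Per the labels' protocols, cells were fixed in 1% formaldehyde and sonicated, and the pulled-down DNA was read from one end for 50 bp. BWA and galGal4 appear in the submitters' processing notes, without a version. Peak names in the deposited lists look like those of MACS, of which the sources used here state neither version nor settings. The deposited SMC2 list carries a score for each peak, with no stated definition or source, and the CAP-H list does not. The lowest score on chromosome 27 was 50.11. The deposited profiles around transcription start sites hold no value per chromosome and were not used. Starts in the lists reach 0, so they were taken as counted from 0 and printed plus 1.

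Members and lists were chosen with earlier results of these data known. Overlap meant at least 1 bp, windows were of 100 kb from the first base, and stretches needed at least 3 peaks. Named regions were the 10 SMC2 peaks of highest score, the 10 widest CAP-H peaks, the 5 richest windows per list, all CAP-H-only stretches, the 5 longest SMC2-only stretches and the 5 longest gaps; other regions were picked after values were seen. Shares have Clopper-Pearson intervals, densities Poisson intervals, ratios and odds ratios exact conditional intervals, and medians order-statistic intervals, all at 95%. No p-values were computed, as each group is 1 library. No genome or annotation of galGal4 was used here, so peaks are given without sequence or genes. The computations were tested on simulated data. Python 3.11.15, numpy 2.4.6, pandas 2.3.3, scipy 1.17.1 and matplotlib 3.10.9 were used.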

Additional observations from a re-analysis of the deposited data

How the results depend on the processing

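Of 32 alternative values, 19 were counted as unchanged. They kept their direction and side of 1, stayed within the interval of the reported value or, for counts without an interval, stayed close to the count. Those counts were 21 against 20 SMC2 and 13 against 13 CAP-H peaks in the richest window, and 3 against 3 CAP-H-only stretches. The length from the SMC2 list alone equals the length used, so SMC2 density could not change with it. The SMC2 and CAP-H density ratios, of chromosome 27 to the other microchromosomes and of the upper to the lower side, kept their direction with an interval that excluded 1 under every alternative tried for them. The size of a ratio was not part of this rule, and some SMC2 sizes left the reported interval. The upper-to-lower SMC2 ratio was 1.70 (1.31 to 2.22) with peaks within 1 kb merged. With SMC2 peaks scored at least 100 alone it was 3.12 (2.09 to 4.77). Under that filter the SMC2 density ratio to the other microchromosomes was 4.76 (3.95 to 5.71). No alternatives were run for the odds ratios. With SMC2 peaks scored at least 100 alone, SMC2 peaks per CAP-H peak fell to 0.861 (0.679 to 1.09), an interval that includes 1. CAP-H peaks have no score and were not filtered, so this value could only fall. Under the same filter the SMC2 density was 26.1 peaks per Mb, the partnered share 59.6% of SMC2 and 51.3% of CAP-H peaks, the median SMC2 width 1770.5 bp, the richest window 13 SMC2 peaks and the CAP-H-only stretches 7. With peaks within 1 kb merged, density was 48.2 SMC2 and 23.2 CAP-H peaks per Mb and the median CAP-H width 1850.0 bp. Requiring that each peak of a pair be covered to 50% gave shares of 19.8% for SMC2 and 39.2% for CAP-H. Runs of at least 2 peaks gave 10 CAP-H-only stretches. The direction of several moves follows from the settings. Removing SMC2 peaks can only lower SMC2 density, the count in the richest window and the partnered CAP-H share. Merging can only lower density, the 50% rule can only lower shares, and shorter runs can only add stretches. The cause of the other moves was not tested. No paired analysis was possible because each pull-down has 1 library.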
